A study of Mus musculus with 12 samples.

Results

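The mitochondrial ribosomal protein genes are the nuclear genes named Mrpl or Mrps. The 76 members were every gene name in the deposited tables that is Mrpl or Mrps followed by digits and at most 1 letter (a, b or c), of 38720 genes in all, so the names and not the values chose them. Their RNA was measured in retinas of C57/BL6 mice at P0 (postnatal day 0), in Math5Cre+;Ezh2f/f pups (mKO) and in wild-type pups (WT), in retinal ganglion cells (RGCs) pulled out with magnetic beads against CD90 and in the cells left behind (non-RGCs), with 3 libraries for each genotype and fraction and 12 in all. Ezh2 is the methyltransferase of the polycomb repressive complex that puts methyl groups on lysine 27 of histone H3. The floxed alleles lose the part that encodes its catalytic SET domain wherever Cre, which is driven from the Math5 locus, is active, and the study states that this is only a part of the RGCs. The 2 fractions come from the same kind of retina, and the labels do not say which RGC and non-RGC libraries share pups or whether the WT pups were littermates.

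Mitochondria keep a ribosome of their own, which makes only the few respiratory chain proteins that mitochondrial DNA encodes. All of its proteins are encoded in the nucleus, made in the cytosol and imported. Many have a counterpart in bacterial ribosomes, and the others were added in the mitochondrial lineage. Of the 76 members, 49 belong to the large subunit, which holds the peptidyl transferase centre, 30 of them with a bacterial counterpart and 19 particular to mitochondria. The small subunit, which decodes the messenger RNA, has 26, of which 16 have a bacterial counterpart and 10 do not. Mrps30 and Mrps18a carry names of the small subunit but sit in the large one and are counted there. Mrps36 is named for the small subunit but is found with the 2-oxoglutarate dehydrogenase complex of the citric acid cycle, so it was kept apart.

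Promoters of 4 members are shown because they stand for the range of the RGC result: the pair with the largest falls among members with an entry, the member that changed least, and Mrpl1, which rose most and whose promoter was picked after its values were seen. Each is the RefSeq window of 300 bases on GRCm38.p6, from 250 bases before the start of transcription to 50 after it, in the direction of transcription. Mrps36 lies at chr13:100744610-100744909 on the minus strand, Mrpl34 at chr8:71464676-71464975 on the plus strand, Mrpl3 at chr9:105053018-105053317 on the plus strand and Mrpl1 at chr5:96209865-96210164 on the plus strand. Capitals mark the ETS motif CCGGAAG, the core bound by ETS factors such as GABP, which are known regulators of nuclear genes for mitochondria.
Mrps36: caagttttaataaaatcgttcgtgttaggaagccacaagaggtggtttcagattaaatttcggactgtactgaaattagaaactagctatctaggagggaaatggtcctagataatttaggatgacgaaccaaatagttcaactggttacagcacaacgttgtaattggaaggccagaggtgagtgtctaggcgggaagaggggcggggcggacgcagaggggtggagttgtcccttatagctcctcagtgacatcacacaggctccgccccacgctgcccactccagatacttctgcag
Mrpl34: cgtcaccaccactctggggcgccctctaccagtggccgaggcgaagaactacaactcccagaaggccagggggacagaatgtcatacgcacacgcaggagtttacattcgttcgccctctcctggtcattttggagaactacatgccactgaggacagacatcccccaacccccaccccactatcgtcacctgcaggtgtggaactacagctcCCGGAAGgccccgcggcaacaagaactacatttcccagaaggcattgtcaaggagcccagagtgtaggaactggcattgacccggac
Mrpl3: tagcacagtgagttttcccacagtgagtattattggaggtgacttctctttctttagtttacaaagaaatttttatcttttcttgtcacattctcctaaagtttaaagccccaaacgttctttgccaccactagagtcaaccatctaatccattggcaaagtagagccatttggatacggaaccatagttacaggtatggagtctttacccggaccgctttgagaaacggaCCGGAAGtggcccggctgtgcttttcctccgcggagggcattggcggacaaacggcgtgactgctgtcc
Mrpl1: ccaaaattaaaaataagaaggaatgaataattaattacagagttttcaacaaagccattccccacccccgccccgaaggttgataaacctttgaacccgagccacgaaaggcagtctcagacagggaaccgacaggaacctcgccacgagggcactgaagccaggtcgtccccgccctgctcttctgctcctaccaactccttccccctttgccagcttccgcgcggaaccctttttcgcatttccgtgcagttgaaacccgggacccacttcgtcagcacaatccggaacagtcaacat
The motif stood 37 bases before the start in Mrpl34, which fell, and 19 bases before it in Mrpl3, which had a log2 fold change of -0.0010. It was not in the windows of Mrps36 and Mrpl1.

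RefSeq windows were at hand for 67 of the 76 members, 73 windows in all. On either strand, CCGGAAG was in 24 of them (32.9%), against 8.86% of all 32851 windows. The NRF1 motif GCATGCG was in 8 member windows and 3.58% of all windows, the YY1 motif AAGATGG in 13 and 6.34%, and the E-box CACGTG in 7 and 7.15%. No motif contains another, though CCGGAAG can run into AAGATGG, and a match is only a match of letters. Members with the ETS motif had a median log2 fold change in RGCs of -0.10 and those without it of -0.09, so these medians were nearly the same. For the NRF1 motif the medians were -0.11 and -0.09, and for the YY1 motif -0.20 and -0.09. For the E-box, found in 5 member genes, they were -0.29 and -0.09. These differences were not tested.

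In each library 7139633 to 13014004 reads were on genes. Ezh2 as a whole gene did not separate the genotypes: in RGCs its normalised read counts were 1354, 1476 and 1443 in mKO and 1190, 1206 and 1678 in WT, and in non-RGCs 1889, 2107 and 2509 in mKO and 2115, 2149 and 1683 in WT, which does not test the deletion because the values cover the whole gene. Unlike these values, the study reports a change of Ezh2 in its RNA-seq of mKO RGCs. It also reports largely diminished Ezh2 in mKO RGCs by qPCR and Western blot. Normalised read count means reads divided by the library's size factor, and the libraries of a group are lettered A to C from the deepest to the shallowest. The 12 RGC marker genes summed to 23384 to 35033 in the RGC libraries and to 5635 to 8209 in the non-RGC libraries. RGC markers were thus enriched in the RGC fraction, but that fraction was not free of other markers. Progenitor markers summed to 11672 to 21596 in the RGC libraries and to 17181 to 29616 in the non-RGC libraries.

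The members as a set took 0.230% to 0.269% of the reads of an RGC library and 0.280% to 0.410% of those of a non-RGC library. Among the RGC libraries, WT library C was the highest of the 6 for 53 of the 75 members tested. Among the non-RGC libraries, mKO library C, which has the fewest reads of all 12, was the highest of the 6 for 62 members, and mKO library A was the lowest for 37. Most members thus moved together between libraries of the same group, and the results below are also given without these libraries.

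**Figure D1:**
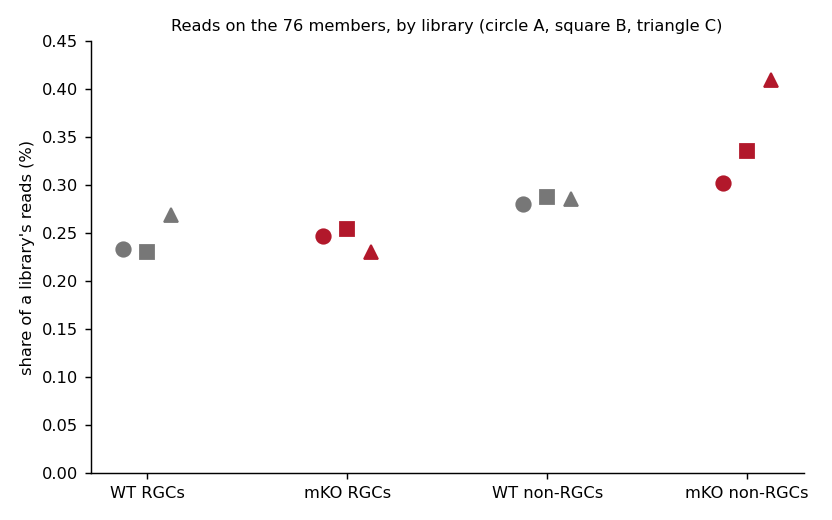
Share of a library's reads, in percent, that fell on the 76 members, in each of the 12 libraries (grey WT, red mKO). All 6 non-RGC libraries lie above all 6 RGC libraries, and mKO non-RGC library C is the highest at 0.410%.

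Levels between members were compared as reads per kilobase of exon scaled to the library's total reads (RPKM), where the length is that of all annotated exons joined, so a gene with long rare exons reads low. In WT RGCs Mrpl34, a large subunit protein with a bacterial counterpart, was the highest at 63.2 ± 6.56 (SD, n = 3), followed by Mrpl28 at 37.9 ± 5.51 and Mrpl2 at 34.3 ± 4.67. The library ranges of Mrpl28 (34.5 to 44.3) and Mrpl2 (30.7 to 39.6) overlapped, and that of Mrpl34 (58.9 to 70.7) lay above both. At the low end were Mrpl33 at 2.85, Mrps30 at 2.68 and Mrpl23 at 1.28, each with 4883 to 7326 bases of joined exon. The order in WT non-RGCs was nearly the same (Spearman's rho of 0.98 over 75 members, which share their lengths). Mrpl53 had at most 5 reads in any library and was not tested; 88.0% of its exon bases are also exon of other genes, Ccdc142os on the opposite strand and Gm42688 on the same strand, and how reads there were counted is not given.

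Fewer members rose than fell in mKO RGCs. By limma on log2(normalised read count + 1), with Benjamini-Hochberg adjustment over all 15647 genes tested and an adjusted p under 0.05 as the threshold, 19 of the 75 members tested (25.3%) were lower in mKO RGCs and 4 (5.33%) were higher, while 52 did not pass. Over all genes tested 21.7% were lower and 16.0% were higher, so the share that fell was near that of all genes and the share that rose was below it. The median log2 fold change of the members was -0.10, against -0.01 over all genes tested. All changes were small: 7 members fell by at least 1.5-fold (9.33% of those tested, 5.58% of all genes) and none rose by that much, as 7.35% of all genes did. In bulk RNA, fewer cells of a type and less RNA per cell cannot be told apart.

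The direction of the split depends on the scaling. With libraries scaled by their total reads, 12 members were lower and 10 higher, and with upper quartile scaling 12 were lower and 15 higher. Of all genes tested, 14.2% were lower and 23.6% higher with total reads, and 10.7% and 28.6% with upper quartile scaling. These scalings moved the median of all genes from -0.01 to 0.11 and 0.19, and the median of the members from -0.10 to 0.02 and 0.10; relative to all genes, the members' median stood at -0.09 under each of the 3.

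The 7 members that fell by at least 1.5-fold were Mrps36, Mrps34, Mrpl34, Mrpl12, Mrpl4, Mrps12 and Mrps28. Mrps36 had normalised read counts of 39.3, 40.6 and 35.8 in the mKO libraries and 67.9, 64.1 and 80.5 in WT. The groups did not overlap, and the level was 1.81-fold lower in mKO (log2 fold change -0.86, SE 0.18, limma adjusted p = 0.0103). It is the member with the largest difference, but with the fewest reads of these 7. The gene lies at chr13:100735955-100744659 (GRCm38).

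Mrps34, a small subunit protein particular to mitochondria, had 92.5, 96.8 and 83.8 in mKO and 148, 147 and 155 in WT, with a log2 fold change of -0.72 (SE 0.13, limma adjusted p = 0.00558). Each mKO library was below each WT library, but 77.8% of its exon bases at chr17:24895116-24897502 are also exon of Nme3 on the same strand or Mapk8ip3 on the opposite strand. Its reads may thus be shared with these genes, and its value is uncertain.

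Mrpl34 (chr8:71464959-71465747), the member with the highest level per length, had 310, 313 and 288 in mKO and 454, 453 and 531 in WT, a 1.57-fold lower level (log2 fold change -0.65, SE 0.09). Mrpl12, the counterpart of the bacterial stalk protein L7/L12 that recruits translation factors, had 266, 287 and 242 against 386, 375 and 476, with a log2 fold change of -0.63 (SE 0.12). Mrpl4, which lines the exit tunnel, had 375, 360 and 355 against 533, 549 and 596, with a log2 fold change of -0.62 (SE 0.08). All 3 belong to the large subunit with bacterial counterparts, and in none of them did the genotypes overlap.

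Mrps12, the counterpart of the bacterial decoding-centre protein S12, had 286, 279 and 267 in mKO and 397, 416 and 456 in WT, with a log2 fold change of -0.60 (SE 0.09). Mrps28, another small subunit protein, had 157, 153 and 141 against 207, 217 and 261, with a log2 fold change of -0.59 (SE 0.13). Mrps24 stood just under the 1.5-fold threshold at -0.58, with 293, 301 and 271 against 386, 416 and 501. The limma adjusted p of these and the 3 large subunit genes above ran from 0.0013 for Mrpl4 to 0.0115 for Mrps28. Without each single library in turn, 6 of the 7 members with a 1.5-fold fall kept an adjusted p under 0.05 by limma, and Mrps28 had 0.0504 without mKO library C.

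The next largest differences were Mrpl52 and Mrpl28, both large subunit genes, with log2 fold changes of -0.54 and -0.50, then Mrpl23 at -0.45, which did not pass (limma adjusted p = 0.0642), and Mrpl54 at -0.44. Mrpl28 missed the threshold without mKO library A or C (adjusted p by limma of 0.0535 and 0.0534), and Mrpl54 without any of WT library B and the 3 mKO libraries (0.0746 to 0.116). The other 8 members that fell had log2 fold changes between -0.43 (Mrpl10) and -0.29 (Mrpl37).

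**Figure D2:**
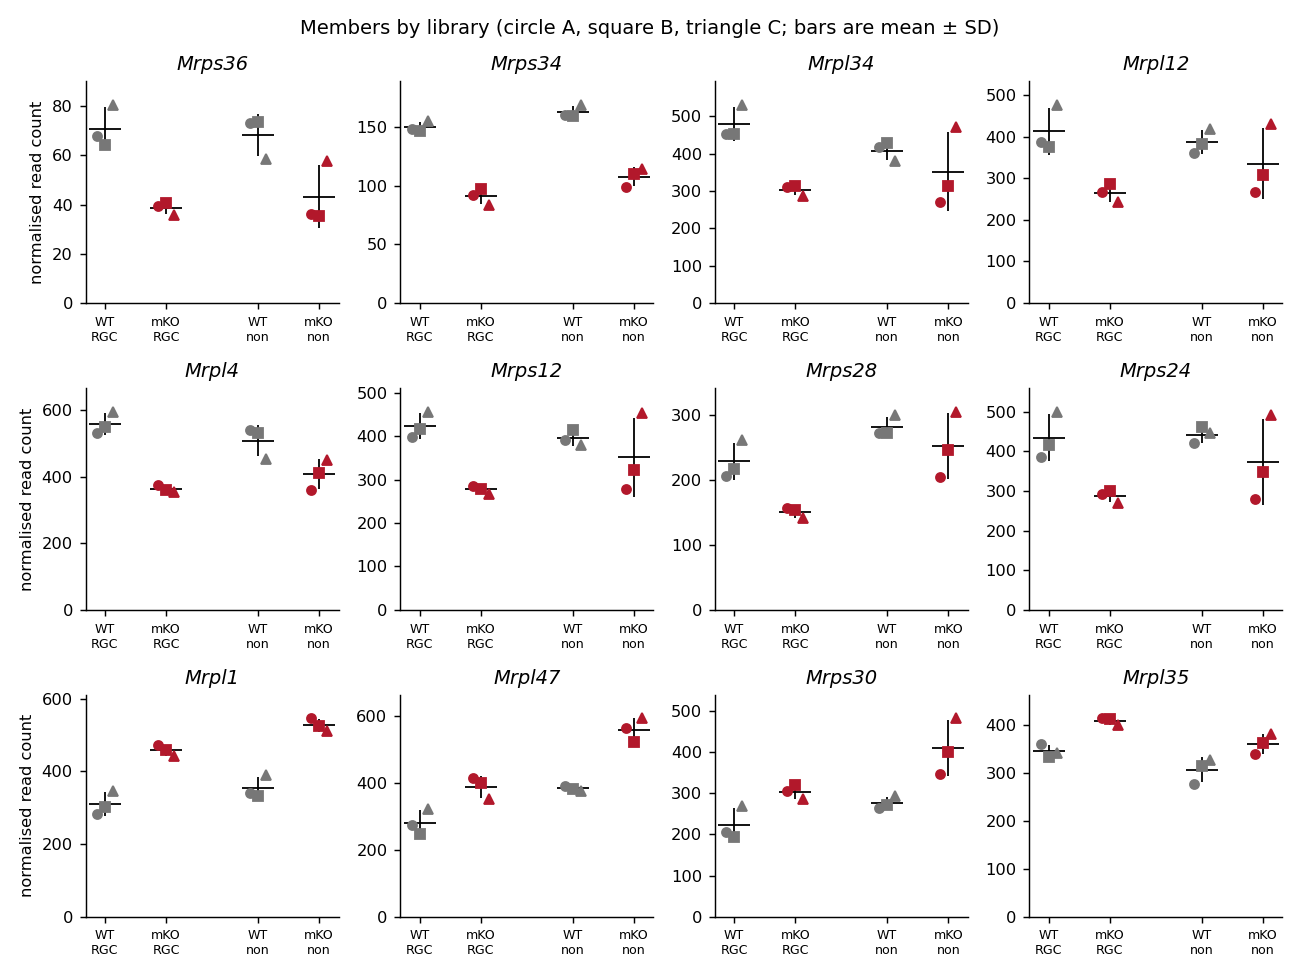
Normalised read counts (linear axis from 0) of 12 members in every library, by genotype and fraction, with mean and SD of 3 libraries. In RGCs the genotypes do not overlap in any of these 12 members, while in the non-RGC fraction mKO library C (triangle) often lies far above libraries A and B.

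The 4 members that rose were all of the large subunit. Mrpl1, the counterpart of the bacterial stalk protein L1 near the exit site, had 472, 459 and 442 in mKO RGCs and 283, 303 and 347 in WT, a 1.48-fold higher level (log2 fold change 0.56, SE 0.10, limma adjusted p = 0.00472). Mrpl47, the counterpart of bacterial L29, had 414, 399 and 352 against 275, 248 and 321, with a log2 fold change of 0.47 (SE 0.12). The genotypes did not overlap in either gene, although 24.2% of the exon bases of Mrpl47 are also exon of Actl6a or Ndufb5 on the opposite strand.

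Mrps30 (mL65, in the large subunit) had 305, 319 and 286 in mKO and 206, 194 and 270 in WT, and a log2 fold change of 0.45 (SE 0.14). Mrpl35 had 413, 412 and 398 against 359, 333 and 341, and a log2 fold change of 0.24 (SE 0.07). Mrps10 of the small subunit was of the same size, 0.25 (SE 0.10), but did not pass (limma adjusted p = 0.105). Mrpl1 kept its call without each single library, with an adjusted p by limma of at most 0.0287. Mrpl47 kept it without WT library C or mKO library C only (the others gave 0.0603 to 0.0893), and Mrps30 and Mrpl35 without WT library C only (0.089 to 0.135 and 0.0612 to 0.135).

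By subunit, 13 of 48 large subunit members tested were lower and 4 higher in mKO RGCs, with a median log2 fold change of -0.12. These are 27.1% and 8.33%, against 21.7% and 16.0% of all genes. Of the 26 small subunit members 5 were lower and 0 higher, with a median of -0.06. Within the large subunit the median was -0.09 for the 30 members with a bacterial counterpart (8 lower, 3 higher) and -0.19 for the 18 tested that are particular to mitochondria (5 lower, 1 higher). In the small subunit the medians were -0.08 (4 lower of 16) and -0.04 (1 lower of 10). No test compared the groups of roles, whose ranges overlapped from -0.65 to 0.56 in the large subunit and from -0.72 to 0.25 in the small.

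The paralogues of bacterial S18 differed in their values. Mrps18a, in the large subunit, had a log2 fold change in RGCs of -0.18 (SE 0.07), Mrps18b of -0.15 (SE 0.15) and Mrps18c of 0.16 (SE 0.13), and none passed (limma adjusted p of 0.0887, 0.46 and 0.371). The library values were 390, 396 and 395 in mKO against 456, 423 and 462 in WT for Mrps18a, 111, 106 and 112 against 105, 123 and 140 for Mrps18b, and 222, 254 and 220 against 186, 199 and 239 for Mrps18c. Only in Mrps18a did the genotypes not overlap.

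Counted by the libraries alone, every mKO library was below every WT library in 30 of the 75 members (40.0%) and above in 10 (13.3%). Over all genes tested in RGCs these shares were 28.9% and 24.1%. Without any of the 3 mKO libraries the number of members called fell from 23 to 12, 13 and 12 (libraries A, B and C), and it was 16 without WT library A, 16 without WT library B and 26 without WT library C. The calls over all genes moved the same way, from 37.6% of those tested to 24.2%, 25.5% and 24.0% without the mKO libraries and to 30.2%, 31.9% and 51.4% without the WT libraries. The median of the members was -0.05 without WT library C and -0.15 without WT library A.

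**Figure D3:**
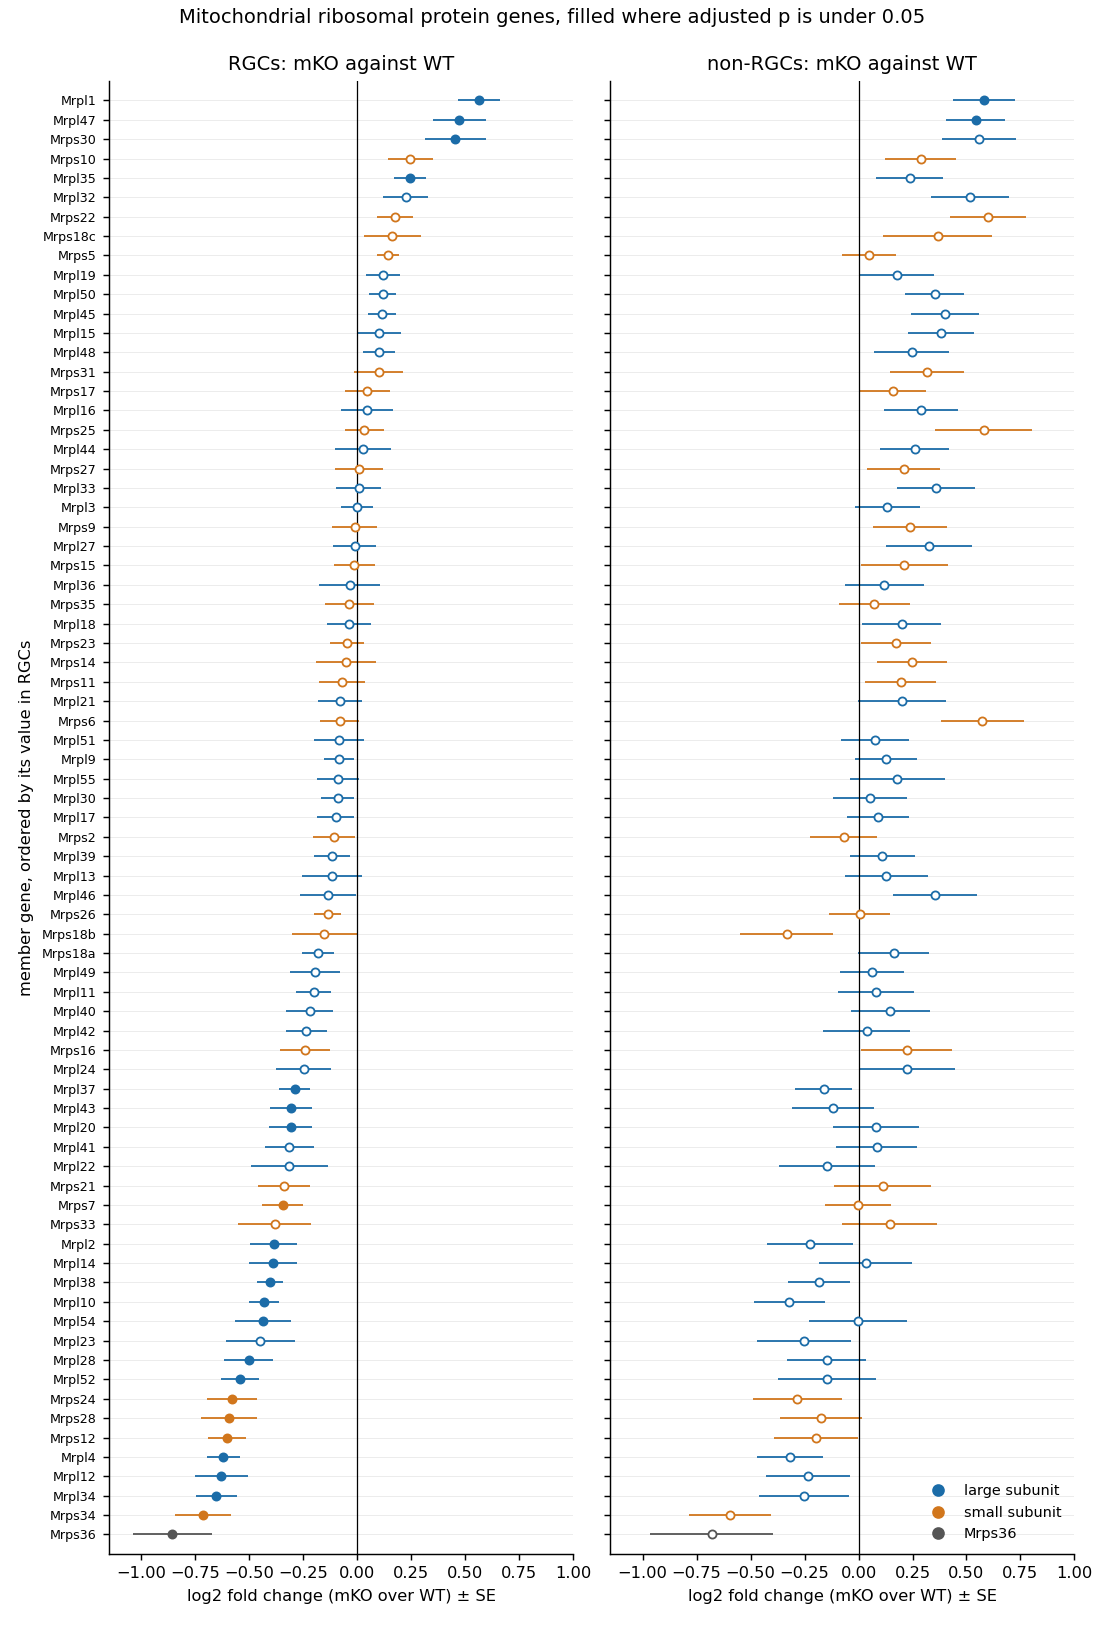
Log2 fold change (mKO over WT) with its standard error for the 75 members tested, in RGCs (left) and non-RGCs (right), ordered by the RGC value and filled where the limma adjusted p is under 0.05. In RGCs 19 filled points lie below 0 and 4 above; in non-RGCs 2 are filled, both above 0.

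The members' differences followed the base composition of their transcripts. GC content ran from 39.6% to 60.6%, and Spearman's rho between it and the RGC log2 fold change was -0.68 over 75 members, all measured in the same 6 libraries. Exon length had a rho of 0.57 with the fold change, and of -0.59 with GC content. Of the 25 members with the most GC (52.6% to 60.6%), 15 were lower and 0 higher, with a median of -0.39. Of the 25 with the least (39.6% to 47.4%), 1 was lower, which is Mrps36, and 4 were higher, with a median of 0.10. In the middle 25 there were 3 lower and 0 higher, with a median of -0.12. Of all genes with GC content in these ranges, 39.2% were lower and 1.10% higher at the high end (members 60% and 0%), 15.2% and 7.37% in the middle (12% and 0%) and 5.02% and 35.2% at the low end (4% and 16%).

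All genes shared this relation. Over all genes tested in RGCs with the same GC content as the 3 groups of members, the median log2 fold change was -0.29 at the high end, 0.01 in the middle and 0.29 at the low end, and the members' medians stood at -0.10, -0.12 and -0.19 from these. With the GC trend of each library removed, 4 members were lower in mKO RGCs and 0 higher, and with trends of GC content, length and level removed 3 were lower and 0 higher; 2 and 0 of these were among the 23 called before. Of all genes tested, 9.19% were lower and 3.75% higher with the GC trend removed, and 4.17% and 2.23% with the 3 trends removed, so the members' shares (5.33% and 4% called, all lower) were not above those of all genes. Mrps36 had a log2 fold change of -0.96 with the GC trend removed (limma adjusted p = 0.0188) and -0.99 with the 3 trends removed (adjusted p = 0.0949). Mrpl10, the base of the L7/L12 stalk, had -0.28 (adjusted p = 0.0365) and -0.19 (0.173).

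The members called only once trends were removed had less GC, and those named here were chosen after their values were seen. Mrpl17 (43.0% GC) had 423, 444 and 391 in mKO and 438, 430 and 482 in WT, and a log2 fold change of -0.10 that became -0.39 without the GC trend and -0.50 without the 3 trends (limma adjusted p of 0.0283 and 0.0246). Mrps14 had -0.05 and became -0.50 without the 3 trends, and Mrpl42 had -0.24 and became -0.39 (adjusted p by limma of 0.038 and 0.0376). Mrpl1, Mrpl47 and Mrps30 stayed above 0 with the 3 trends removed, at 0.17, 0.23 and 0.08, and none passed, while Mrpl35 and, among those that fell, Mrpl2, Mrpl14, Mrpl28, Mrpl38, Mrpl54 and Mrps7 changed sign. The part of base composition in these results was not tested.

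**Figure D4:**
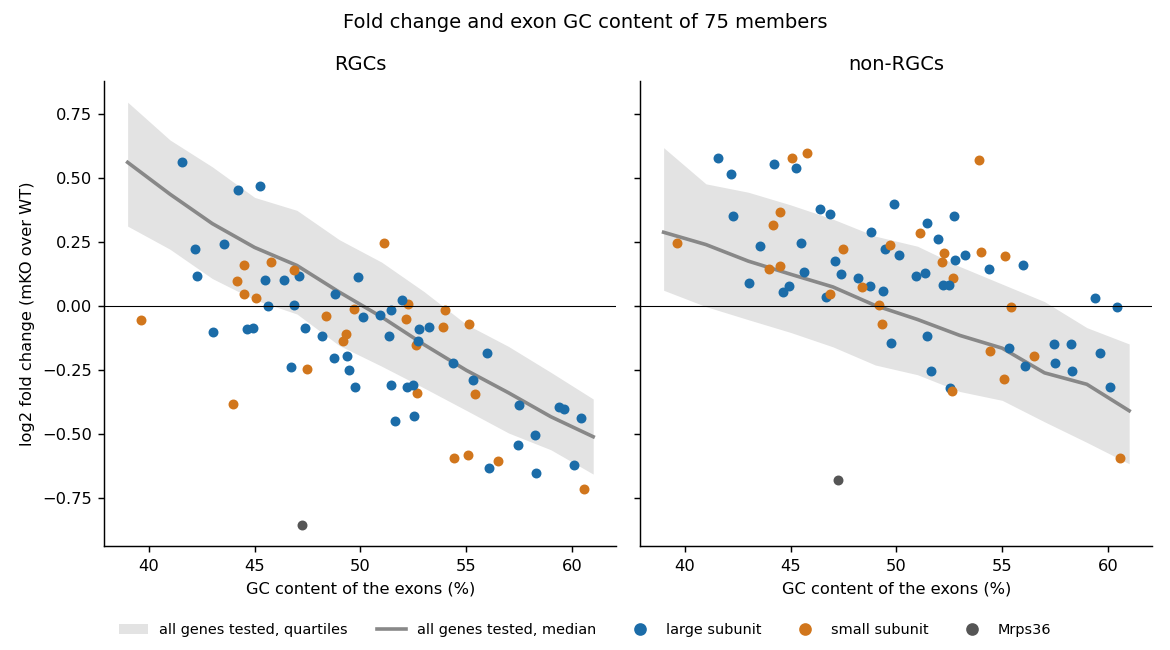
Log2 fold change (mKO over WT) against the GC content of each gene's longest transcript (protein-coding where there is such a transcript), in percent, for the 75 members tested, with the median (line) and quartiles (band) of all genes tested in bins of 2% GC. In RGCs the members follow the falling line, and most lie on or under it; Mrps36 lies far below at 47.2% GC.

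In non-RGCs, 2 of the 75 members passed the test and both were higher in mKO. By limma 0 were lower and 2 (2.67%) were higher, against 6.53% and 4.03% of all 14914 genes tested. At an unadjusted p under 0.05 there were 2 lower and 10 higher. The share of all genes at that threshold was not counted, so no excess of members can be read from it. Limma with voom weights also called 0 lower and 2 higher at an adjusted p under 0.05, against 6.76% and 4.38% of all genes. With an adjusted p under 0.05 and a fold of at least 1.5, 0 members were lower and 0 higher, against 4.28% and 3.72% of all genes. Every mKO library was below every WT library in 6 members (8.0%) and above in 12 (16.0%), against 19.5% and 16.8% of all genes tested.

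The pair was Mrpl1 and Mrpl47, which also rose in RGCs. In limma with no mean-variance trend both missed the threshold (adjusted p = 0.0501 and 0.0510) and Mrps34 was called instead, as lower (adjusted p = 0.0460). Mrpl1 had 546, 526 and 510 in mKO non-RGCs and 339, 331 and 389 in WT (log2 fold change 0.58, SE 0.14, limma adjusted p = 0.0339). Mrpl47 had 564, 523 and 593 against 392, 382 and 377 (log2 fold change 0.54, SE 0.14, limma adjusted p = 0.036). The genotypes did not overlap in either. Both missed the threshold without WT library A, WT library B, mKO library A or mKO library B, with adjusted p by limma from 0.0707 to 0.158.

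The largest other differences above 0 in non-RGCs were Mrps22 at 0.60 (496, 545 and 671 against 407, 407 and 313), Mrps25 at 0.58 (414, 450 and 541 against 347, 392 and 221), Mrps6 at 0.57 (238, 257 and 323 against 200, 189 and 158) and Mrps30 at 0.56 (348, 401 and 482 against 263, 272 and 293). In each the groups did not overlap, but limma gave an adjusted p of 0.0572, 0.122, 0.084 and 0.0649, and 69.8% of the exon bases of Mrps25 are also exon of Nr2c2. Of the members below 0, Mrps36 was the lowest at -0.68, with 36.2, 35.5 and 57.9 in mKO and 73.1, 73.5 and 58.4 in WT, so that mKO library C nearly reached WT library C. Mrps34 had -0.60 (98.6, 110 and 114 against 161, 160 and 169), Mrps18b -0.33, Mrpl10 -0.32 and Mrpl4 -0.32, with adjusted p by limma from 0.0718 to 0.327.

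The median log2 fold change of the members in non-RGCs was 0.13, against -0.03 over all genes tested, and 54 of the 75 members stood above 0. That median rests on the mKO libraries: it was -0.00095 without library C and 0.26 without library A. It also rests on the trends, at 0.17 with the GC trend removed, 0.05 with GC and length trends removed and 0.06 with the 3 trends removed. With total reads or upper quartile scaling 9 members were higher and 0 lower, and with the spread estimated from all 12 libraries 10 were higher and 1 lower. Of all genes tested, 8.44% were higher and 2.88% lower with total reads, 6.76% and 2.10% with upper quartile scaling, and 9.22% and 13.5% with all 12 libraries. With the GC trend removed, 0 members passed, and of all genes tested only 0.821% were higher and 0.55% lower. Across members the rho with GC content was -0.55.

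The question whether the genotype difference itself differed between fractions was put to all 12 libraries together. By limma 0 of the 75 members passed, against 0.103% of 15548 genes tested, and 1 member, Mrps6, had an unadjusted p under 0.05, as 9.87% of all genes did; limma with voom weights gave the same counts of members. Mrps6 had a log2 fold change of -0.08 in RGCs and 0.57 in non-RGCs, a difference of -0.65 (limma adjusted p = 0.424). In 72 of the 75 members the RGC value was below the non-RGC value, with a median difference of -0.24, against 52.5% of all genes and a median of -0.02; without mKO non-RGC library C the members' median difference was -0.12. It was -0.26 with the GC trend removed, but -0.08 with GC and length trends removed and -0.09 with the 3 trends removed.

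Across members the order of the differences was alike in the fractions, with a Spearman's rho of 0.84 over 75 members, where all 14506 genes tested in both had 0.65. The fractions share no library but may share pups, and both carry the relation to GC content. With the trends of GC content, length and level removed, the rho of the members was 0.60. Of the 75 members 21 were below 0 in both fractions, 21 above 0 in both, 33 below 0 in RGCs and above in non-RGCs, and 0 the other way.

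**Figure D5:**
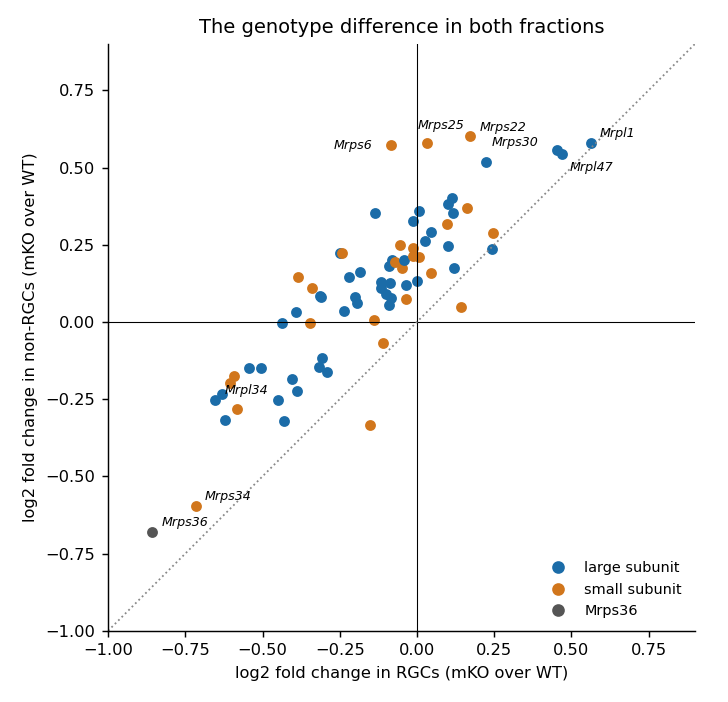
Log2 fold change (mKO over WT) of each of the 75 members in non-RGCs against that in RGCs, with the line of equal values dotted. Nearly all points lie above the dotted line, Mrps36 and Mrps34 lie at the low end in both fractions and Mrpl1 at the high end.

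Proteins of the same ribosome also stand under other gene names. For this and the following lists, the shares over all genes tested were 21.7% lower and 16.0% higher in RGCs, and 6.53% and 4.03% in non-RGCs. Of 7 such genes, 3 were lower and 1 higher in mKO RGCs: Gadd45gip1 (log2 fold change -0.61, SE 0.10) and Mrp63 (-0.39, SE 0.09) fell, as did Aurkaip1 (-0.37, SE 0.09), and Ptcd3, a pentatricopeptide protein of the small subunit, rose by 0.33 (SE 0.07). Of 24 genes for the assembly of this ribosome, 4 were lower and 3 higher, among them Mpv17l2 at -0.79 (SE 0.17) and Mrm1 at -0.33, and Fastkd2 at 0.77 (SE 0.10) and Mterfd1 at 0.52. Fastkd2 and Mterfd1 also rose in non-RGCs, by 0.70 and 0.64, and Dhx30, an RNA helicase, fell in both fractions (-0.32, SE 0.06, in RGCs and -0.40, SE 0.10, in non-RGCs). For these lists 2 were higher and 1 lower of 24 in non-RGCs, and 0 of the 7 passed.

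Of 15 mitochondrial translation factors 5 were higher and 1 lower in mKO RGCs: Tufm, the elongation factor that brings the transfer RNAs, fell (-0.48, SE 0.07), and Guf1 (0.60, SE 0.12) and Mtif2, the initiation factor (0.43, SE 0.07), rose most. Of 17 mitochondrial transfer RNA synthetases 4 were lower and 3 higher: Sars2 (-0.52, SE 0.07) and Cars2 (-0.41, SE 0.13) fell most, and Nars2 (0.50, SE 0.11) and Wars2 (0.47, SE 0.12) rose most. As shares, 6.67% of the factors were lower and 33.3% higher, and 23.5% of the synthetases were lower and 17.6% higher. Over all genes these were 21.7% and 16.0%, so the synthetases were near all genes. The medians of the lists were 0.15 and -0.05, and in non-RGCs 0 members of either list passed. Translation itself was not measured.

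Of 9 genes that copy or transcribe mitochondrial DNA, 3 were higher and 1 lower in mKO RGCs (33.3% and 11.1%, against 16.0% and 21.7% of all genes). Polrmt, its RNA polymerase, fell in both fractions (-0.49, SE 0.08, and -0.70, SE 0.13), while Polg2, a subunit of its DNA polymerase, rose in RGCs (0.38, SE 0.12), as did Tfam (0.30, SE 0.07), and Mterf had 39.3, 47.9 and 38.6 in mKO against 16.2, 18.5 and 12.8 in WT (1.36, SE 0.24). In non-RGCs Polg, the catalytic subunit, fell (-0.48, SE 0.12) and Tefm, an elongation factor, rose (0.93, SE 0.22). Of 8 regulators of nuclear genes for mitochondria, Yy1 (-0.50, SE 0.06) and Esrra (-0.49, SE 0.09) fell in RGCs and Ppargc1a (0.70, SE 0.17) and Gabpa, the DNA-binding part of GABP (0.44, SE 0.12), rose. Yy1 also fell in non-RGCs (-0.50, SE 0.11), as did Ppargc1b (-1.33, SE 0.33).

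The counts of the messenger RNAs that this ribosome reads were lower in mKO RGCs where they could be tested. Of 13 mitochondrially encoded genes 5 are listed at 0 in every library and mt-Nd3 was under the filter. All 7 tested were lower in mKO RGCs, from -0.51 (mt-Nd4, SE 0.06) to -0.30 (mt-Nd6, SE 0.06), against 21.7% of all genes. In non-RGCs 0 passed. These genes are poor in GC, with a median of 37.1%, against 50.1% over the 75 members tested. They are also short, with a median exon length of 1144 bases. Duplicate reads were removed according to the labels, which limits the count that a short, abundant gene can reach. Size factors were 1.06 to 1.15 in the mKO RGC libraries and 0.857 to 0.987 in WT. The part of this limit in the lower values was not tested.

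The cytosolic ribosomal protein genes and the nuclear Nduf genes for complex I are other sets of nuclear genes for large protein complexes. In mKO RGCs 71 of 76 cytosolic ribosomal protein genes were lower and 2 higher, with a median of -0.55, and 27 of 37 Nduf genes were lower and 2 higher, with a median of -0.42. Over all genes tested 21.7% were lower and 16.0% higher. Among the mitochondrial ribosomal protein genes the figures were 19 and 4 of 75, with -0.10. The median GC content was 51.9%, 51.5% and 50.1% in the same order. In non-RGCs 0 members of either set passed, with medians of -0.17 and -0.07, against 6.53% lower and 4.03% higher of all genes. The sets share all libraries and no test compared them. Their median exon lengths were 1805.5, 1569 and 2255 bases in the same order. Removal of duplicate reads limits the counts of short, abundant genes, and its part in the differences between the sets was not tested.

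Marker genes of cell types moved with the genotype. The shares over all genes tested, for all marker lists, were 21.7% lower and 16.0% higher in RGCs, and 6.53% and 4.03% in non-RGCs. In the RGC fraction 10 of 12 RGC markers were lower in mKO (sums of 23384 to 24514, against 32395 to 35033 in WT). By RT-PCR the study found Pou4f1, Sncg, Thy1 and Tubb3 not significantly different between genotypes. It also reports similar RGC densities in adult mKO and control retinas. In the non-RGC fraction 8 markers were higher (6008 to 8209 against 5635 to 5968), and 1 of the 12 had a log2 fold change below 0. Thy1, which encodes the CD90 used for capture, had 67.0, 79.6 and 93.2 in mKO non-RGCs and 4.51, 1.94 and 9.38 in WT. In RGCs its log2 fold change was -0.73 (SE 0.06). A difference in capture between genotypes was not tested. Progenitor markers summed to 11672 to 12498 in mKO RGCs and 13054 to 21596 in WT, where 5 of 10 were lower, photoreceptor markers to 9180 to 9708 and 10550 to 14793 (4 of 10 lower) and amacrine markers to 6059 to 6420 and 6542 to 8078 (4 of 8 lower). The same 3 lists had lower sums in mKO non-RGCs too, at 17181 to 21545 against 23449 to 29616, 13413 to 15799 against 17981 to 19980, and 10565 to 11216 against 13737 to 14808, with 1, 4 and 2 members lower.

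All 5 blood markers tested were higher in mKO in both fractions, with sums of 284 to 345 against 121 to 137 in RGCs and 564 to 866 against 129 to 213 in non-RGCs. Of 7 astrocyte and Müller cell markers tested 2 were lower in RGCs (3892 to 4904 in mKO, 4560 to 6616 in WT) and 1 in non-RGCs (5807 to 7145, 7059 to 8249). Of 6 endothelial and pericyte markers 1 was lower in RGCs (3545 to 4398, 3970 to 5456) and 0 in non-RGCs (5225 to 5992, 6805 to 7101). No microglia marker passed in either fraction (1242 to 2580 and 2216 to 3184 in RGCs, 92.5 to 197 and 19.8 to 233 in non-RGCs). The kidney gene Umod had normalised read counts of 0, 1.84 and 0 in mKO RGCs against 28.4 to 39.7 in WT, and 0.771, 0 and 0 against 28.9 to 31.3 in non-RGCs, and was lower in mKO by limma in both (adjusted p = 0.000871 and 0.00326). No marker of these lists was at 0 in every library. The part of these cell types in the members' differences was not tested.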

How the data were processed

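RNA was measured in 12 libraries of P0 mouse retina, 3 of each genotype and fraction, grouped by their GEO labels. Per the submitters' processing notes and the study's methods, single-end reads were mapped by the authors to the mm10 build (STAR 2.3.1z4), assigned to genes (featureCounts) and normalised (DESeq); whether counting used strand is not given in the sources used here. The names in the labels also say that primary alignments were kept and duplicates removed. The deposited tables, 1 for RGCs and 1 for non-RGCs, hold signal values made by the authors: the mean, within a genotype, of the 3 libraries' gene counts after division by size factors. Their columns of fold changes and p-values are the authors' comparisons and were not used. Columns of other per-sample values numbered 0.

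Because the means carry 15 digits, the whole reads of each library were recovered from them. For 100% of genes with a mean above 0 exactly 1 solution was found in each group, and size factors computed anew from the recovered reads matched those used. For larger means, solutions near an even share between the 3 libraries were preferred, so uniqueness holds within that search. The recovered libraries carry no replicate number. Reads on genes ran from 7139633 to 13014004 per library; per-gene intervals cover counting and library spread through the fit. The 3 samples of a group come from separate RNA extractions according to the study's methods, and whether from separate pups is not stated in the labels, so p-values measure the spread between these samples.

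log2(normalised read count + 1) was fitted with limma 3.58.1 (R 4.3.3) with a mean-variance trend. Genes entered with a mean normalised count of 10 or more, and p-values were adjusted by Benjamini-Hochberg over all genes tested. A fold change on this scale understates that of low genes. An exact permutation test of 3 against 3 cannot go below p = 0.1, so none was run. Positions, exons and GC content came from GENCODE M21 (GRCm38), promoters from RefSeq (GRCm38.p6). GC content is that of the longest annotated transcript of a gene, protein-coding where there was such a transcript, while length is that of all exons joined. Trends with GC content, length and level were fitted per library with splines of 5 degrees of freedom over genes whose mean was 50 or more; GC content was known for 98.8% of the genes tested. The fits and the recovery were tested on simulated data. Named members were those past the threshold with a 1.5-fold change in either fraction, the 5 largest other values on each side, the extremes of level, the Mrps18 paralogues and the member under the filter; for other lists, the largest called changes, with the next ones named beside them chosen after their values were seen, as were Mrpl17, Mrps14 and Mrpl42. The alternatives are a pseudocount of 0.5, no filter or a mean of at least 50, scaling by total reads or upper quartile, limma without a trend or with voom, removal of the trends, all 12 libraries in 1 fit, a fold rule, and leaving out each library. The members and lists were chosen with earlier results of these data known. The summary of the kidney marker list is not reported here.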

Additional observations from a re-analysis of the deposited data

How the results depend on the processing

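In RGCs, 23 members were called. The number was 7 when called by a p under 0.05 with a 1.5-fold change and 15 with all 12 libraries in 1 fit. It was 4 with the GC trend removed, 6 with GC and length trends removed and 3 with GC, length and level trends removed. Over the left-out libraries it ran from 12 to 26. Of all genes tested in RGCs 37.6% were called, and 24.7% with all 12 libraries. With the trends removed the share was 12.9% (GC), 14.7% (GC and length) and 6.4% (all 3). By the rule of p and fold, 982 of 15647 genes were lower and 1428 higher. Over the left-out libraries the share of all genes ran from 24.0% to 51.4%. The median moved from -0.10 to 0.021 with total reads scaling and 0.097 with upper quartile scaling. In non-RGCs the 2 calls became 0 with each of the 3 trend removals, 1 with no trend in limma (Mrps34, lower, with Mrpl1 and Mrpl47 lost), 11 with all 12 libraries in 1 fit, 9 with total reads scaling and 9 with upper quartile scaling, and ran from 0 to 2 over the left-out libraries. Of all genes tested in non-RGCs 10.6% were called. With the trends removed the share was 1.37% (GC), 1.41% (GC and length) and 0.658% (all 3). It was 5.91% with no trend in limma and 22.7% with all 12 libraries. With total reads it was 11.3% and with upper quartile scaling 8.86%. Over the left-out libraries it ran from 0.882% to 10.7%. The interaction called 0 members under every alternative run, where 0.0452% to 1.58% of all genes passed. With the GC trend, the GC and length trends, and the 3 trends removed, Mrpl35 in RGCs turned to -0.023, -0.0033 and -0.049 and Mrpl54 in RGCs to 0.070, 0.14 and 0.14; Mrpl28 in RGCs turned to 0.015 with the 3 trends removed. Fewer samples and a pooled spread enter the left-out-library and 12-library fits by construction; elsewhere the cause was not tested. No paired analysis was possible because the recovered libraries carry no replicate number. Members with few reads, such as Mrps36 (36 to 81 normalised reads) and Mrpl53, are the least precise.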
